A study of Mus musculus with 4 samples.

Results

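The RNA-rich tissue of 2 mouse brain slices, one at rest and one at 2 days post injury (dpi), was compared gene by gene. Both slices lay in a single Visium capture area, a glass surface with printed spots that capture the polyadenylated RNA of the tissue above them, so that each spot reads a small region holding several cells. Spots over tissue were joined into connected pieces on the hexagonal array. The piece of 1017 spots was taken as rest and the piece of 1726 spots as 2 dpi from the outlines of the study's spatial plots, because the labels put both in 1 sample. Spots were then selected on their measured total of unique molecular identifiers (UMIs, 1 per captured RNA molecule), with a minimum of 5000 UMIs. This kept 986 spots at rest and 715 at 2 dpi, together 1701 of the 2743 spots of this capture area and of the 9340 spots over tissue in all 8 slices of the series.

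The study examined how fibroblasts and immune cells respond to brain injury over time. Both mice were wild type (WT), on the C57BL/6 background by the study's methods. The methods give 1 age range of adult mice and both sexes for the study as a whole, and the labels give neither age nor sex for these mice. The resting mouse was not injured. The other received a photothrombotic (PT) injury of the somatosensory cortex, made by light on the skull after injection of the dye Rose Bengal, and was collected 2 days later. Each time is therefore 1 slice of 1 mouse, and time, mouse, anatomical level and injury cannot be told apart. The other slices were pairs of WT mice at 7 and 21 dpi and a pair of Cthrc1(creER); R26(DTA) mice at 21 dpi. They were used as a measure of how far slices of a group differ, and for levels at later times. They lay in other capture areas, so time and capture area cannot be told apart across areas. In the last pair a tamoxifen-inducible Cre under Cthrc1 control switches on diphtheria toxin A. That last pair was set aside by the study because the deletion could not be detected.

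Photothrombosis closes small cortical vessels and leaves a core of dead tissue. In the surviving tissue around it, microglia are activated and divide, astrocytes become reactive and raise intermediate filaments and secreted acute-phase proteins, and chemokines draw neutrophils and monocytes from the blood. Much of the astrocyte response runs through interleukin-6 family cytokines and the transcription factor STAT3, while neuronal activity is read from immediate early genes such as Arc and Fos, whose transcription follows synaptic input.

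At 2 dpi only 41.4% of the spots reached the minimum, against 97.0% at rest. Of the 1011 spots below it at 2 dpi, 985 formed one connected block, which is not described further here. Few spots lay near the threshold. At 2 dpi 50 spots held at least 4000 but fewer than 5000 UMIs and 22 held at least 5000 but fewer than 6000, the nearest being 4989 and 5009, and at rest the numbers were 20 and 37, with 4987 and 5019 as the nearest. The kept spots had a median of 16331 UMIs at rest and 15182 at 2 dpi, and 4870.5 and 4741 genes. Thinned to 5000 UMIs they had 2362 and 2376 genes. All levels below are UMIs of a gene per 1000000 UMIs (CPM), summed over the spots of a slice, which held 16237926 UMIs at rest and 11540557 at 2 dpi. In such sums, more cells of a type and more RNA per cell cannot be told apart.

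The slices did not show the same anatomy. By marker genes, the RNA-rich tissue at rest held 665 cortical marker spots, 159 hippocampal marker spots, 127 myelin-rich spots and 18 spots rich in Ttr, the transthyretin gene of the choroid plexus. At 2 dpi it held 339 cortical marker spots, 138 Ttr-rich, 114 striatal marker, 68 myelin-rich and 10 hippocampal marker spots. Comparisons are therefore given for the cortical marker spots too, a subset chosen after maps of the markers were seen, with 11302558 UMIs at rest and 5716884 at 2 dpi. At 2 dpi these lay in 2 separate patches on different sides of the RNA-poor block, patch A of 137 spots and patch B of 202. The patches are regions of 1 slice, and equal values in both are no replication in another animal.

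The labelled tissue was brain cortex, and spots that met the cortical marker rule were found in both slices. The levels of genes in these spots describe them and do not test the label. In the cortical marker spots Slc17a7, the vesicular glutamate transporter of cortical neurons and one of the genes that chose the spots, measured 499 CPM at rest and 479 CPM at 2 dpi. Snap25, a presynaptic protein that had no part in the choice, measured 3446 CPM at rest and 2383 CPM at 2 dpi. A low level of the choroid plexus gene Ttr was a condition for cortical marker spots, so its level there is no finding. Ttr stood at 149.7 CPM at rest and 129 CPM at 2 dpi in them. Over all RNA-rich spots it stood at 528 CPM at rest and 21181 CPM at 2 dpi. Xist, transcribed from the inactive X chromosome, was nearly equal at 72.5 CPM at rest and 73.1 CPM at 2 dpi. The Y-linked genes Ddx3y, Eif2s3y, Kdm5d and Uty stood at 0 to 0.188 CPM in RNA-rich spots of both slices grouped by UMIs. Both slices thus had the expression of female tissue.

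Many more genes were higher at 2 dpi than lower. Over all RNA-rich spots 11594 genes had a mean CPM of at least 5 over both slices, and 1158 of them, 9.99%, were at least 2-fold higher at 2 dpi, while 240, 2.07%, were at least 2-fold lower. In the cortical marker spots 542 of 11220 genes, 4.83%, were at least 2-fold higher and 48, 0.428%, at least 2-fold lower. The median gene hardly moved, with log2 ratios of 0.02 and 0.02. Of the 1158 higher genes 518, or 44.7%, were also among the 542 of cortex, and of the 240 lower genes 32, or 13.3%, were among the 48 of cortex. Genes scarce at rest could reach the mean CPM only through a high level at 2 dpi and so had to be higher. A further share was taken over the 10835 genes with at least 5 CPM at rest in cortex that also passed the mean CPM in either set of spots. Of these 2.55% were at least 2-fold higher and 0.48% at least 2-fold lower. The mean drops no such gene that was 2-fold higher, but it can drop genes that were lower, so the number lower is a minimum. Of the 542, 444 (81.9%) passed 2-fold in both patches, and of the 48, 24 did. The 542 and 48 were called on the sum of both patches, so this agreement is partly built in.

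With 1 slice per time there is no replicate check and no test, and a ratio carries only an exact (Clopper-Pearson) 95% interval for counting error. The distance between slices of 1 group gives a yardstick. In cortical marker spots the slices at 7 dpi lay at least 2-fold apart in 3.72% of genes, those at 21 dpi in 0.401% and the Cthrc1(creER); R26(DTA) pair in 0.316%, against 5.26% between rest and 2 dpi. Over all RNA-rich spots the shares were 4.24%, 1.29% and 1.79% against 12.1%. The pair at 7 dpi thus lay nearly as far apart in cortex as rest and 2 dpi did.

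**Figure D1:**
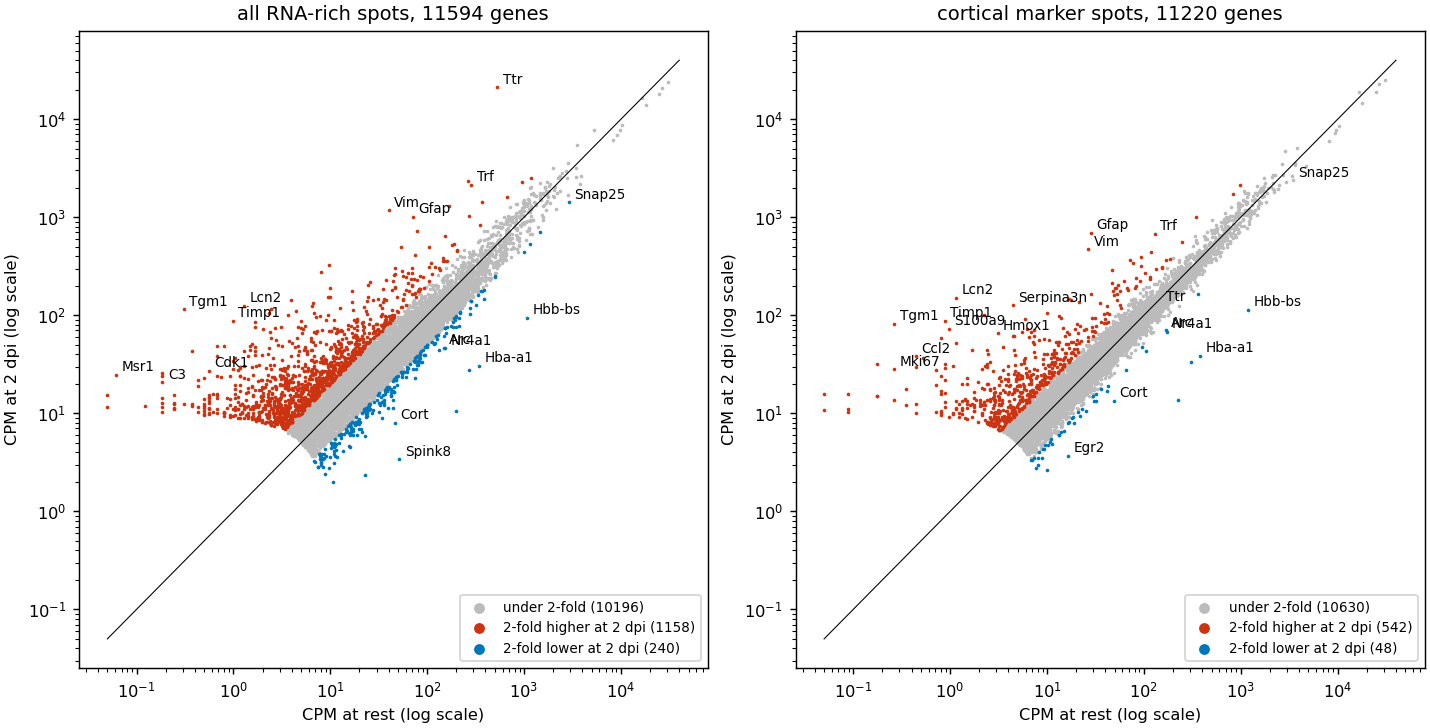
Level of each gene at rest (x axis) and at 2 dpi (y axis) in CPM, both on log scales, over all RNA-rich spots (left) and cortical marker spots (right), with genes at least 2-fold higher at 2 dpi in red and at least 2-fold lower in blue. Ttr leaves the diagonal on the left and lies on it on the right, where spots were chosen for low Ttr. Gfap, Vim, Lcn2 and Tgm1 lie above the diagonal and the haemoglobin genes below it on both sides.

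Among counted genes with at least 200 UMIs in the higher slice, the largest ratios in cortex included genes of reactive astrocytes and acute inflammation. Tgm1, a transglutaminase that cross-links proteins, measured 0.265 CPM at rest and 82.0 CPM at 2 dpi, from 3 and 469 UMIs, a ratio of 309-fold (95% interval 105 to 1504). It was 82.5 and 81.8 CPM in patches A and B, so neither side of the RNA-poor block carried it alone. Lcn2, the secreted iron-binding lipocalin, measured 1.15 CPM at rest and 152 CPM at 2 dpi, 132-fold (95% interval 76.7 to 249) higher. Timp1, an inhibitor of matrix metalloproteinases, measured 0.885 CPM at rest and 87.8 CPM at 2 dpi, 99.2-fold (95% interval 53.5 to 208) higher, with 87.8 and 87.8 CPM in patches A and B. These 3 genes were near absent at rest and were counted only through 2 dpi, so they had to be higher. Tgm1 and Timp1 stood at nearly the same level in both patches. Thinned to 5000 UMIs per spot, Lcn2 was found in 4 of 665 spots at rest (0.602%, 95% interval 0.164 to 1.53) and 102 of 339 at 2 dpi (30.1%, 25.3 to 35.3), and the unthinned shares were 1.65% and 47.5%. Intervals of such shares, here and below, cover counting error only. They are over neighbouring spots of 1 slice, which are no replicates of a time, and so do not test a difference between times.

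Gfap, the intermediate filament protein by which reactive astrocytes are recognised, gained more CPM in the cortical marker spots than any other counted gene that was at least 2-fold higher, except the actin gene Actb and the metallothionein gene Mt1. It measured 28.3 CPM at rest and 694 CPM at 2 dpi, from 320 and 3968 UMIs, and was 24.5-fold (95% interval 21.9 to 27.6) higher. It stood at 698 and 692 CPM in patches A and B. After thinning, Gfap was found in 85 of 665 spots at rest (12.8%, 95% interval 10.3 to 15.6) and 266 of 339 at 2 dpi (78.5%, 73.7 to 82.7), with unthinned shares of 27.5% and 87.9%. Vim, the second such filament, measured 26.7 CPM at rest and 470.0 CPM at 2 dpi, 17.6-fold (95% interval 15.6 to 19.9) higher.

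Of the 22 genes of the reactive astrocyte list, 17 were counted in cortex and all 17 were at least 2-fold higher, but 13 of them had under 5 CPM at rest and were counted only through 2 dpi. The 4 with at least 5 CPM at rest were all higher, where 2.55% of all such genes were, and the 5 that were not counted had more CPM at 2 dpi too. In all RNA-rich spots 19 were counted and higher, beside 9.99% of all genes, but 13 of them were counted only through 2 dpi. The list was gathered with earlier results of these data known, and it holds genes known for this response. Serpina3n, a secreted protease inhibitor, went from 4.42 to 127 CPM and Cd44, a hyaluronan receptor, from 1.68 to 44.3 CPM. Nes, a filament of immature and reactive glia, measured 2.39 CPM at rest and 43.7 CPM at 2 dpi. S100a10, at the other end, was 2.44-fold higher.

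Of the genes with promoter sequence at hand, Tgm1, with the highest ratio, and Emp1, a membrane protein of the same list (0.796 to 9.62 CPM in cortex), are shown because their upstream bases hold letters bound by STAT proteins. Cxcl10, a chemokine of the same list, is shown for a match to the AP-1 letters. Each stretch runs from base 200 to base 51 before the RefSeq transcription start, 5′ to 3′ on the strand of the gene, in build GRCm38.p6, and overlaps no annotated exon. Capitals mark matches to TTCNNNGAA (STAT) or TGANTCA (AP-1), both searched on both strands.
Tgm1, chr14:55713543-55713692, minus strand, with STAT letters 173 and 64 bases before the start: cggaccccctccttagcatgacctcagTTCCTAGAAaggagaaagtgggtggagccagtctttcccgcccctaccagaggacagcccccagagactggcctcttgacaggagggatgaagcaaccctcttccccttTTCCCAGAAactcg
Emp1, chr6:135362731-135362880, plus strand, with AP-1 letters 145 and STAT letters 120 bases before the start: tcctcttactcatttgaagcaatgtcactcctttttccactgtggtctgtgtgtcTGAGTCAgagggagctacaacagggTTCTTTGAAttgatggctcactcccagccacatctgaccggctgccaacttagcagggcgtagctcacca
Cxcl10, chr5:92348940-92349089, minus strand, with AP-1 letters 74 bases before the start: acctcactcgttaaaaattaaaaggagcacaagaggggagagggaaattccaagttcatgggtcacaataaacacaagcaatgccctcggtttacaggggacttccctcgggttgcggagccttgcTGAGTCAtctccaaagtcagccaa
Over windows from 250 bases before to 50 after the start, 8.30% of all 32851 windows held the STAT letters and 7.81% the AP-1 letters. Of the 27 windows of 20 reactive astrocyte genes, 6 held the STAT letters and 6 the AP-1 letters. These counts hold overlapping windows of Sphk1 that share the same sites. Of 18 windows of 15 interferon-stimulated genes, 4 held the STAT letters and 6 the AP-1 letters. Of 26 windows of 15 immediate early genes, 1 held the STAT letters and 1 the AP-1 letters. The letters were thus not particular to the reactive astrocyte list. Of 17 windows of genes among the 15 highest ratios over all or cortical marker spots, 2 held the STAT letters and 0 the AP-1 letters. A match is a description of letters and was not set against any binding data.

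Of 18 genes of resting astrocyte function 2 (beside 4.83% of all genes) were at least 2-fold higher in cortex and none lower (0.428%), with a median log2 ratio of 0.14 that turned to -0.11 in spots within 3 steps of RNA-poor tissue. The 2 were Aqp4, the water channel of astrocyte endfeet, which measured 68.9 CPM at rest and 182 CPM at 2 dpi, and Aldh1l1, an enzyme of folate metabolism, which measured 38.5 CPM at rest and 83.8 CPM at 2 dpi. The glutamate transporter gene Slc1a2 measured 1551 CPM at rest and 1372 CPM at 2 dpi and the glutamine synthetase gene Glul 517 CPM at rest and 444 CPM at 2 dpi, so neither passed 2-fold. The median of this list between same-group slices reached 0.30, more than the median here.

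Many acute cytokine, chemokine and neutrophil genes were scarce at rest and were found at 2 dpi. Of 24 genes 8 were counted in cortex and 7 of them were at least 2-fold higher, beside 4.83% of all genes, but all 7 were counted only through 2 dpi, so the count describes these genes and supports nothing. Of the 16 that were not counted, 15 had more CPM at 2 dpi. Ccl2, which attracts monocytes, measured 0.442 CPM at rest and 38.3 CPM at 2 dpi, from 5 and 219 UMIs, 86.6-fold (95% interval 36.5 to 269) higher. Ccl4, another chemokine, had 1 and 64 UMIs, a ratio of 127-fold (95% interval 21.9 to 5075). Ccl12, a relative of Ccl2, measured 2.21 CPM at rest and 100.1 CPM at 2 dpi, 45.2-fold (95% interval 30.3 to 70.5) higher. S100a8 and S100a9, the calprotectin subunits abundant in neutrophils, went from 0.796 to 58.8 CPM and from 0.973 to 72.6 CPM. These were unequal between the patches, with S100a9 at 31.2 and 93.0 CPM in patches A and B. Cxcl10, which attracts T cells, had no UMI at rest and 62 at 2 dpi in cortex. With the resting count set to a floor of 3 UMIs the ratio was 40.9-fold, which is no strict bound.

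The 1 counted gene of this list below 2-fold was Ptgs2, the inducible cyclooxygenase, at 9.64 CPM at rest and 15.6 CPM at 2 dpi. The classical early cytokines stayed too low to be counted. Il1b had 20 UMIs at rest and 34 at 2 dpi in cortex, Tnf 0 and 7, and Il6 1 and 2. Ly6g, a neutrophil surface marker, had 0 and 1 UMIs, while Retnlg, another neutrophil gene, had 0 and 45. The higher levels of neutrophil genes therefore rest on S100a8, S100a9 and Retnlg and not on every marker.

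Signalling genes of the interleukin-6 family varied, also among the receptors. Of the receptors in cortex, Osmr, the oncostatin M receptor, measured 2.39 CPM at rest and 20.1 CPM at 2 dpi, 8.42-fold (95% interval 5.499 to 13.3) higher, while the shared receptor chain Il6st measured 18.2 CPM at rest and 29.9 CPM at 2 dpi and Lifr 38.4 CPM at rest and 31.7 CPM at 2 dpi, both less than 2-fold apart. Stat3 measured 20.6 CPM at rest and 81.9 CPM at 2 dpi, 3.97-fold (95% interval 3.39 to 4.67) higher. Its feedback inhibitor Socs3 measured 2.74 CPM at rest and 26.9 CPM at 2 dpi, 9.82-fold (95% interval 6.64 to 14.95) higher, and the transcription factor gene Cebpd 7.25 CPM at rest and 70.0 CPM at 2 dpi, 9.64-fold (95% interval 7.59 to 12.4) higher. The kinase genes Jak1 and Jak2 were 1.25-fold and 1.07-fold higher. These 4 higher genes were all of the list's 10 counted genes that passed 2-fold in cortex, beside 4.83% of all genes, and none was lower. Osmr and Socs3 were counted only through 2 dpi. Of the 8 with at least 5 CPM at rest 2 were higher, against 2.55% of all such genes. Among ligands, Il11 had 4 and 33 UMIs, 16.3-fold (95% interval 5.80 to 63.4) higher, and Clcf1 10 and 40, both below the level counted.

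Microglial genes did not move as one. In cortex 6 of 12 homeostatic microglia genes, all with at least 5 CPM at rest, were at least 2-fold higher and none lower, beside 4.83% and 0.428% of all genes, with a median log2 ratio of 1.00, where same-group slices reached 0.77. Fcrls measured 13.3 CPM at rest and 99 CPM at 2 dpi, 7.46-fold (95% interval 6.22 to 8.99) higher, and Csf1r, the receptor microglia need to survive, 26.4 CPM at rest and 60.3 CPM at 2 dpi. P2ry12, a receptor for nucleotides that resting microglia carry, measured 35.1 CPM at rest and 28.0 CPM at 2 dpi, and was 28.0 CPM in both patches. It was thus the only gene of the 12 below its resting level in cortex.

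Of 16 counted genes of activated microglia and scar macrophages 11 were at least 2-fold higher in cortex, 2 of them only through 2 dpi. Of the 14 with at least 5 CPM at rest 9 were higher, against 2.55% of all such genes. Lgals3, galectin-3, measured 0.708 CPM at rest and 27.5 CPM at 2 dpi, 38.8-fold (95% interval 19.2 to 91.4) higher, and Spp1, osteopontin, 10.0 CPM at rest and 106 CPM at 2 dpi, 10.6-fold (95% interval 8.66 to 13.1) higher. Ftl1, a ferritin subunit, measured 348 CPM at rest and 1007 CPM at 2 dpi and Tyrobp, an adaptor of microglial receptors, 56.4 CPM at rest and 175 CPM at 2 dpi. Apoe, the apolipoprotein of astrocytes and activated microglia, measured 1472 CPM at rest and 1057 CPM at 2 dpi, 1.39-fold (95% interval 1.35 to 1.43) lower. Apoe therefore stood on the other side of rest from Lgals3 and Spp1 at this time.

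Of 17 monocyte and border macrophage genes 6 were counted in cortex and were at least 2-fold higher, beside 4.83% of all genes, 4 of them only through 2 dpi. The 2 with at least 5 CPM at rest were Lyz2 and Fn1, and 10 of the 11 that were not counted had more CPM at 2 dpi. Lyz2, lysozyme, measured 6.28 CPM at rest and 72.8 CPM at 2 dpi, 11.6-fold (95% interval 8.99 to 15.1) higher, and Mrc1, the mannose receptor, 2.74 CPM at rest and 14.3 CPM at 2 dpi, 5.23-fold (95% interval 3.42 to 8.18) higher. H2-Ab1, an MHC class II chain, measured 0.708 CPM at rest and 10.3 CPM at 2 dpi, and Thbs1, thrombospondin 1, 3.19 CPM at rest and 23.1 CPM at 2 dpi. Msr1, a scavenger receptor of macrophages, had no UMI at rest and 91 at 2 dpi, a ratio of 60.0-fold with the floor of 3 UMIs. The more specific genes of recruited monocytes were too low to be counted, with Ccr2 at 5 and 41 UMIs, Chil3 at 0 and 45, Plac8 at 1 and 41 and Arg1 at 1 and 54. Every one of these had more UMIs at 2 dpi, although the 2 dpi cortex held fewer UMIs in all.

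Complement genes followed. Of 15 genes 8 were counted in cortex and 7 were at least 2-fold higher, 2 of them only through 2 dpi. Of the 6 with at least 5 CPM at rest 5 were higher, against 2.55% of all such genes. C1qa, C1qb and C1qc, the chains of C1q made by microglia, went from 52.0 to 190.5 CPM, from 62.1 to 223 CPM and from 49.8 to 189 CPM. C4b, which astrocytes also make, measured 3.54 CPM at rest and 47.6 CPM at 2 dpi, 13.4-fold (95% interval 9.62 to 19.2) higher, and C3ar1, the receptor for a fragment of C3, was 13.3-fold (95% interval 7.93 to 23.6) higher. Most UMIs of C3, the central complement protein, lay outside cortex. It had 3 and 239 UMIs over all RNA-rich spots, 112-fold (95% interval 37.9 to 547) higher, but only 3 and 14 in cortex, and at 2 dpi stood at 62.5 CPM in Ttr-rich spots and 14.2 CPM in striatal marker spots.

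Of 20 interferon-stimulated genes 15 were counted in cortex and 12 were at least 2-fold higher, 6 of them only through 2 dpi. Of the 9 with at least 5 CPM at rest 6 were higher, against 2.55% of all such genes. Ifitm3, a membrane protein that restricts viral entry, measured 14.1 CPM at rest and 93.4 CPM at 2 dpi, 6.64-fold (95% interval 5.55 to 7.98) higher, and Isg15, a ubiquitin-like protein, 4.69 CPM at rest and 27.1 CPM at 2 dpi, 5.78-fold (95% interval 4.21 to 8.06) higher. Ifit2 barely differed at 8.76 CPM at rest and 9.27 CPM at 2 dpi. In the MHC class I pathway only Psmb8, a subunit of the immunoproteasome, passed 2-fold among 9 genes of cortex, beside 4.83% of all genes, at 5.04 CPM at rest and 25.5 CPM at 2 dpi, and the light chain gene B2m measured 179 CPM at rest and 242 CPM at 2 dpi. Over all RNA-rich spots, which differ in anatomy, 6 of 11 genes of that pathway passed 2-fold, beside 9.99%, 2 of them only through 2 dpi. Of the 9 with at least 5 CPM at rest there, 4 were higher.

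**Figure D2:**
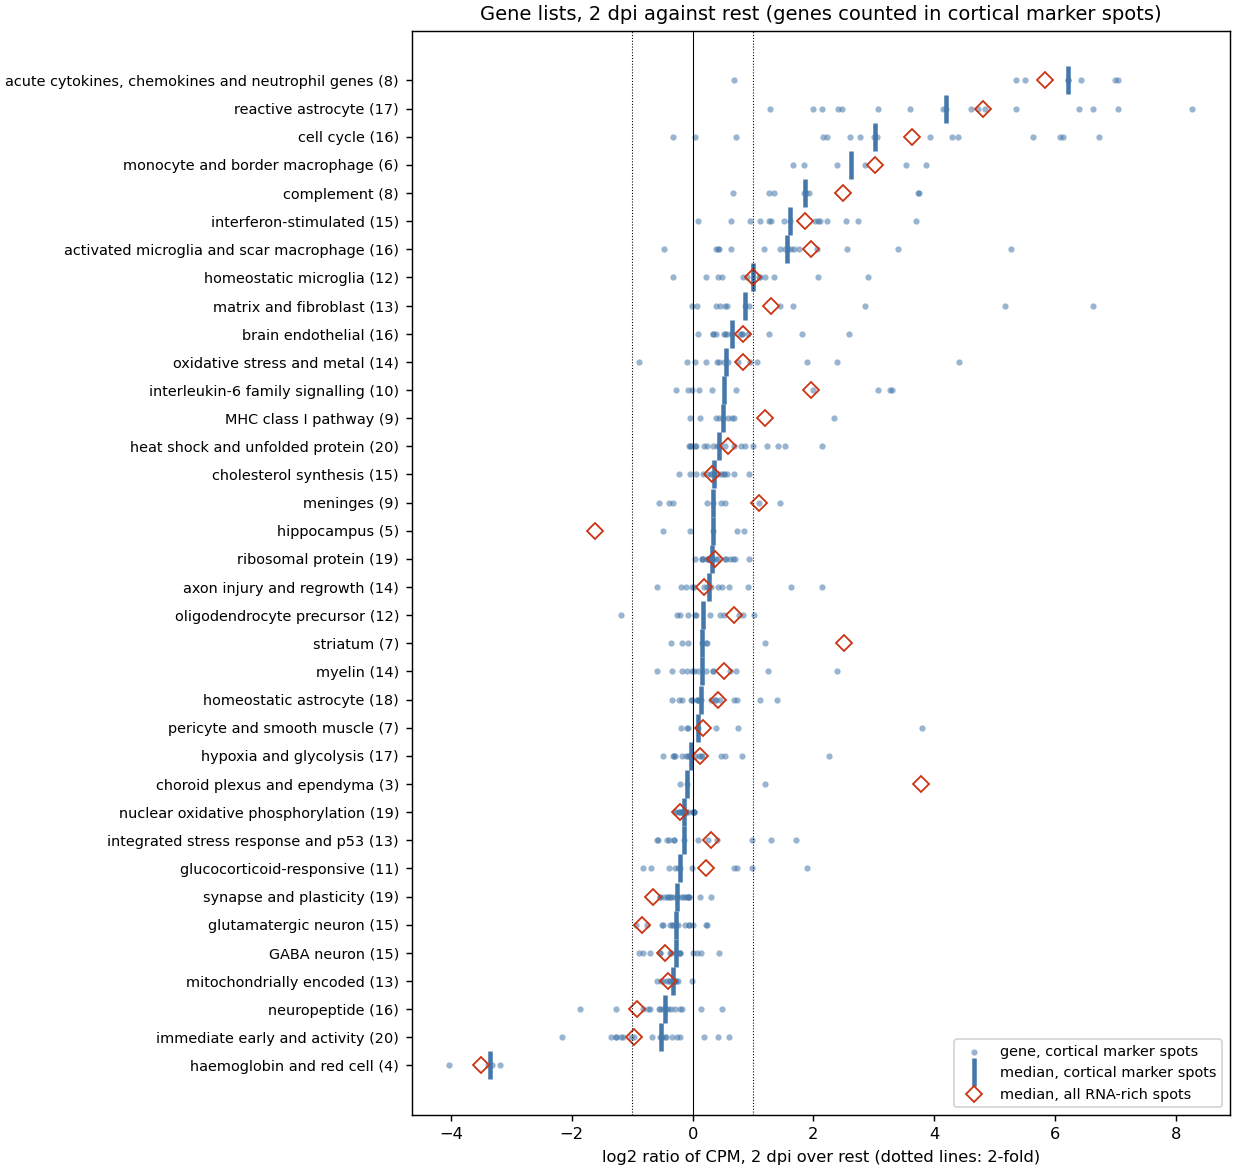
Log2 ratio of CPM, 2 dpi over rest, by gene list. Points are genes counted in cortical marker spots (their number in brackets), bars their medians and open diamonds the medians over all RNA-rich spots, with dotted lines at 2-fold. Acute cytokine and reactive astrocyte genes lie farthest to the right, most of them counted only through 2 dpi, and haemoglobin genes farthest to the left, while hippocampal, striatal and choroid plexus lists have medians near 0 in cortex and far from it over all spots.

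Many genes of dividing cells were near absent at rest and were found at 2 dpi. Of 20 genes 16 were counted in cortex and 13 were at least 2-fold higher, beside 4.83% of all genes, but all 13 were counted only through 2 dpi, and none of the 3 with at least 5 CPM at rest passed. In the whole RNA-rich tissue 14 of 17 were higher, beside 9.99%, but 13 of the 17 were counted only through 2 dpi. Of the 4 with at least 5 CPM at rest there, 1 was higher. Mki67, a protein of cycling nuclei, had 3 and 160 UMIs, at 0.265 CPM at rest and 28.0 CPM at 2 dpi, 105-fold (95% interval 35.4 to 517) higher. Top2a, a topoisomerase of mitosis, measured 0.442 CPM at rest and 29.9 CPM at 2 dpi, 67.6-fold (95% interval 28.4 to 211) higher, and Cdk1 0.354 CPM at rest and 17.7 CPM at 2 dpi. Mki67 stood at 30.7 and 26.7 CPM in patches A and B. After thinning it was found in 0 of 665 spots at rest (0%, 95% interval 0 to 0.553) and 48 of 339 at 2 dpi (14.2%, 10.6 to 18.3), and unthinned in 0.451% and 28.0%. The replication helicase genes Mcm2, Mcm3, Mcm5 and Mcm6 were 6.79-fold, 8.01-fold, 4.45-fold and 6.07-fold higher. The 3 below 2-fold were Ccne1, Pcna and H2afz, which resting brain also transcribes at 17.0, 68.0 and 623 CPM.

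Of 20 immediate early genes of neuronal activity 7 were at least 2-fold lower in cortex at 2 dpi, where 0.428% of all genes were, and none was 2-fold higher. The other 13 did not pass 2-fold. Egr2 measured 16.5 CPM at rest and 3.67 CPM at 2 dpi, 4.48-fold (95% interval 2.85 to 7.41) lower. Nr4a1, a nuclear receptor induced by activity, measured 171 CPM at rest and 67.5 CPM at 2 dpi, 2.53-fold (95% interval 2.27 to 2.83) lower, and Arc, which acts in synaptic plasticity, 168 CPM at rest and 70.0 CPM at 2 dpi, 2.40-fold (95% interval 2.15 to 2.68) lower. Egr1 measured 364 CPM at rest and 165 CPM at 2 dpi and Fos 96.6 CPM at rest and 47.9 CPM at 2 dpi. Arc stood at 73.5 and 68.2 CPM in patches A and B, below the level at rest in each. Jun went the other way at 44.7 CPM at rest and 68.0 CPM at 2 dpi, 1.52-fold (95% interval 1.33 to 1.74) higher.

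Dusp1, a phosphatase that switches off MAP kinases, measured 104 CPM at rest and 43.2 CPM at 2 dpi, 2.41-fold (95% interval 2.101 to 2.78) lower, with 40.2 and 44.7 CPM in patches A and B. Its promoter is shown because it was the only one of the 15 immediate early genes with windows at hand (26 windows) to hold the cyclic AMP response element TGACGTCA, marked in capitals, which 1.79% of all windows held. Of the same 26 windows 4, all of Egr2 and some overlapping, held the CArG box letters CCWWWWWWGG (W being A or T), against 1.63% of all windows. The Dusp1 stretch again runs from base 200 to base 51 before the start, and the match begins 143 bases before it.
Dusp1, chr17:26508523-26508672, minus strand, GRCm38.p6: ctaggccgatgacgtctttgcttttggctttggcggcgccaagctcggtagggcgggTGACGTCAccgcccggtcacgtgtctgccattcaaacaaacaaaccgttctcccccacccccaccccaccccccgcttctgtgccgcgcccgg

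The shift of this list was not larger than that between slices of 1 group. Its median log2 ratio was -0.53 in cortex, -1.0 in patch A and -0.47 in patch B, and the medians of same-group slices lay up to 0.98 apart. Arc in the cortical marker spots of the other slices was 91.8 and 9.74 CPM at 7 dpi, 93.9 and 95.9 at 21 dpi and 48.2 and 81.0 in the Cthrc1(creER); R26(DTA) pair. The slice at rest was thus the highest of all 8 for Arc, and the slice at 2 dpi lay within the range of the others. After thinning, Arc was found in 328 of 665 spots at rest (49.3%, 95% interval 45.5 to 53.2) and 95 of 339 at 2 dpi (28.0%, 23.3 to 33.1), with unthinned shares of 82.4% and 60.5%.

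Glutamatergic neuron and synapse genes stood further below rest over all RNA-rich spots than in cortex. Over all RNA-rich spots 4 of 15 glutamatergic neuron genes and 3 of 19 synapse genes were at least 2-fold lower, beside 2.07% of all genes, with medians of -0.84 and -0.65 on the log2 scale. In cortex no gene of either list passed 2-fold, and the medians were -0.28 and -0.25. Same-group slices reached 0.15 and 0.09 in cortex, and 0.39 and 0.24 over all RNA-rich spots. The cortical marker spots had to reach a minimum of cortical neuron genes, so the choice bears on neuronal levels there. Some glutamatergic genes helped to choose the cortical marker spots and are no finding there. Of synapse genes that did not, Snap25 was 1.45-fold lower in cortex and Syt1, the calcium sensor of vesicle release, 1.33-fold. In the list of axon injury and regrowth 2 of 14 genes were at least 2-fold higher, beside 4.83% of all genes, Hspb1 and the tubulin gene Tubb2b, the latter at 52.9 CPM at rest and 163 CPM at 2 dpi, and none was lower.

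Among neuropeptide genes 2 of 16 were at least 2-fold lower in cortex, beside 0.428% of all genes, and none was higher. Cort, cortistatin of certain inhibitory neurons, measured 48.9 CPM at rest and 13.5 CPM at 2 dpi, 3.63-fold (95% interval 2.86 to 4.67) lower, and Adcyap1 25.4 CPM at rest and 10.50 CPM at 2 dpi, 2.42-fold (95% interval 1.83 to 3.25) lower. Both differed between the patches, with Cort at 2.64 and 18.8 CPM in patches A and B and Adcyap1 at 4.76 and 13.3 CPM in patches A and B. In the 6 other slices Cort lay between 13.6 and 20.05 CPM, so the slice at rest stood apart from all others for this gene. Sst, somatostatin, measured 357 CPM at rest and 202 CPM at 2 dpi and Npy 303 CPM at rest and 187 CPM at 2 dpi, both less than 2-fold apart.

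The genes furthest below rest were those of haemoglobin, carried by red blood cells and their precursors. All 4 counted were at least 2-fold lower in both sets of spots, beside 0.428% of all genes in cortex and 2.07% over all RNA-rich spots. Hbb-bs measured 1189 CPM at rest and 114 CPM at 2 dpi in cortex, 10.46-fold (95% interval 9.67 to 11.3) lower, and Hbb-bt 226 CPM at rest and 13.8 CPM at 2 dpi, 16.4-fold (95% interval 13.1 to 20.7) lower. Hba-a1 and Hba-a2 were 9.96-fold and 9.09-fold lower. Same-group slices also lay far apart in this list, with medians up to 2.66 on the log2 scale against -3.35 here. Hbb-bs was 322 and 284 CPM at 7 dpi, 557 and 378 at 21 dpi, and 334 and 52.0 in the Cthrc1(creER); R26(DTA) pair, again with the slice at rest as the highest. How much blood each slice held was not tested.

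In cortex 3 of 16 brain endothelial genes were at least 2-fold higher, beside 4.83% of all genes, and none was lower. They were Lrg1, Vwf and Ly6a. Lrg1, a secreted glycoprotein, measured 1.77 CPM at rest and 10.7 CPM at 2 dpi and was counted only through 2 dpi. Vwf, the von Willebrand factor, measured 7.17 CPM at rest and 25.2 CPM at 2 dpi, and Ly6a 35.8 CPM at rest and 85.9 CPM at 2 dpi. Of the 13 genes with at least 5 CPM at rest 2 were higher, against 2.55% of all such genes. The median log2 ratio of the list was 0.65 in cortex, against at most 0.05 between same-group slices. Over all RNA-rich spots it was 0.84, against at most 0.32. The tight junction gene Cldn5 measured 40.8 CPM at rest and 53.4 CPM at 2 dpi. Of 7 pericyte and smooth muscle genes only Tagln, a cytoskeletal protein that other cells can also raise, passed 2-fold, beside 4.83% of all genes. Tagln measured 4.42 CPM at rest and 61.4 CPM at 2 dpi, 13.9-fold (95% interval 10.3 to 19.1) higher, and was counted only through 2 dpi. None of the 5 with at least 5 CPM at rest passed. The pericyte genes Pdgfrb and Rgs5 were 1.06-fold and 1.14-fold lower, short of 2-fold.

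Matrix genes were at least 2-fold higher in 5 of 13 in cortex, beside 4.83% of all genes, the 5 being Timp1, Tnc, Thbs1, Fn1 and Dcn. Timp1, Tnc and Thbs1 were counted only through 2 dpi. Of the 9 with at least 5 CPM at rest 2 were higher, against 2.55% of all such genes. Tnc, tenascin C of provisional matrix, measured 0.885 CPM at rest and 32.0 CPM at 2 dpi, 36.2-fold (95% interval 19.2 to 76.7) higher, and Fn1, fibronectin, 20.8 CPM at rest and 65.8 CPM at 2 dpi. Collagens moved less. Col4a1 of the vessel basement membrane measured 16.5 CPM at rest and 30.3 CPM at 2 dpi, and Col1a2, of fibrillar collagen, 4.60 CPM at rest and 6.65 CPM at 2 dpi. Cthrc1, a gene the study follows in fibroblasts, measured 10.0 CPM at rest and 10.50 CPM at 2 dpi, so at 2 dpi the RNA-rich cortex was nearly at its resting level.

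Stress and metal genes were mixed. Hmox1, the haem-degrading oxygenase, measured 3.097 CPM at rest and 65.8 CPM at 2 dpi, 21.2-fold (95% interval 15 to 31.0) higher, with 96.3 and 50.7 CPM in patches A and B. The metallothionein gene Mt2 measured 119 CPM at rest and 439.6 CPM at 2 dpi and Mt1 835 CPM at rest and 1743 CPM at 2 dpi. Tfrc, the transferrin receptor, went the other way at 81.0 CPM at rest and 43.9 CPM at 2 dpi, 1.84-fold (95% interval 1.60 to 2.13) lower. Of 20 heat shock and unfolded protein genes 5 were at least 2-fold higher, beside 4.83% of all genes, 2 of them only through 2 dpi. Of the 18 with at least 5 CPM at rest 3 were higher, against 2.55% of all such genes. Hspb1 measured 4.78 CPM at rest and 21.2 CPM at 2 dpi and Sdf2l1 10.53 CPM at rest and 30.3 CPM at 2 dpi. Hspa1a, below 2-fold, measured 11.3 CPM at rest and 16.4 CPM at 2 dpi. In the integrated stress response and p53 list 2 of 13 passed, beside the same 4.83%, Nupr1 at 12.4 CPM at rest and 40.8 CPM at 2 dpi and Gadd45g at 15.2 CPM at rest and 37.6 CPM at 2 dpi. Of 17 hypoxia and glycolysis genes 1 passed, a share near the 4.83% of all genes and so no result about the list. It was Hk2, a hexokinase, at 2.12 CPM at rest and 10.1 CPM at 2 dpi, counted only through 2 dpi, and Vegfa measured 45.3 CPM at rest and 32.4 CPM at 2 dpi. Of 11 glucocorticoid-responsive genes only Mt2 passed, again near that share, while Per1 measured 73.9 CPM at rest and 41.6 CPM at 2 dpi.

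Broad metabolic groups differed by small amounts. All 13 mitochondrially encoded genes were lower in cortex, with log2 ratios from -0.59 to -0.01, and they took 14.4% of cortical UMIs at rest and 11.6% at 2 dpi. Their median of -0.32 was smaller than the 0.47 seen between same-group slices. All 19 ribosomal protein genes were higher, with a median of 0.32 against 0.28 between same-group slices, and cholesterol synthesis genes had a median of 0.35 against 0.54. None of these passed 2-fold in cortex. Nuclear oxidative phosphorylation genes had a median of -0.13.

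Oligodendrocyte genes were led by Trf, transferrin, which oligodendrocytes and the choroid plexus make. It measured 129.7 CPM at rest and 682 CPM at 2 dpi in cortex, 5.26-fold (95% interval 4.95 to 5.59) higher, and stood at 1256 CPM in myelin-rich spots at rest and 6953 CPM at 2 dpi. Of 14 myelin genes 2, Trf among them, were at least 2-fold higher in cortex, beside 4.83% of all genes, and none was lower. Apart from Trf, the genes of this list that did not choose the cortical spots were within 2-fold. Ermn measured 37.7 CPM at rest and 62.3 CPM at 2 dpi and Opalin 36.9 CPM at rest and 36.7 CPM at 2 dpi. Among precursor genes Olig2, a lineage transcription factor, measured 15.04 CPM at rest and 30.4 CPM at 2 dpi, while Gpr17, a receptor of cells about to myelinate, measured 11.1 CPM at rest and 4.90 CPM at 2 dpi, 2.28-fold (95% interval 1.502 to 3.56) lower from 126 and 28 UMIs. Gpr17 was level over all RNA-rich spots, at 13.7 CPM at rest and 13.4 CPM at 2 dpi.

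Some genes had large ratios over all RNA-rich spots but not in cortex. All 10 striatal genes and all 10 choroid plexus and ependymal genes were at least 2-fold higher over all spots, beside 9.99% of all genes. However, 3 of the striatal and 6 of the choroid plexus and ependymal genes were counted only through 2 dpi. The 7 and 4 with at least 5 CPM at rest were all higher. Of 8 hippocampal genes 5 were lower, beside 2.07%. The cortical marker spots were chosen by cortical genes and by low Ttr, so the choice bears on these lists there, and their medians in cortex are a description only. They were 0.16, -0.10 and 0.33 on the log2 scale. Spink8, a gene of hippocampal neurons, was 15.2-fold lower over all spots and 1.08-fold lower in cortex. A2m, alpha-2-macroglobulin, was 47.5-fold higher over all spots and 45.3-fold in cortex, and Cldn2, a claudin of the choroid plexus, had 1 and 0 UMIs in cortex.

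Levels at 2 dpi varied with the distance from RNA-poor tissue. Cortical marker spots were grouped by steps on the array to the nearest spot under 5000 UMIs, with 58, 59, 54, 126 and 42 spots at 1, 2, 3, 4 to 6 and over 6 steps. The median UMIs per spot were 9972 in the first group and 15441 to 18734 in the others, and at rest 8035 and 15640.5 to 19583, so the nearest spots were shallower in both slices. In that order S100a9 measured 349, 43.6, 136, 7.69 and 1.28 CPM and Tnc 157, 42.6, 20.7, 9.397 and 2.56 CPM. Lgals3 measured 150.2, 27.0, 11.8, 8.97 and 6.41 CPM and Lyz2 326, 78.9, 34.5, 31.2 and 38.5 CPM. These genes of immune cells and provisional matrix were highest at the border itself, where at rest the first group held 0, 1.48, 2.97 and 10.4 CPM.

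Several reactive astrocyte genes peaked further in. Lcn2 measured 54.9, 163, 297, 154 and 19.2 CPM from the nearest to the farthest spots, Tgm1 32.3, 63.4, 130.2, 106 and 11.5 CPM, and Timp1 54.9, 91.4, 183, 74.3 and 25.6 CPM. All were highest at 3 steps. Gfap instead measured 305, 461, 759.6, 764 and 995 CPM and Aqp4 95.3, 126, 187, 187 and 297 CPM, lowest at the border and highest beyond 6 steps. At rest the order of Gfap was the reverse, at 60.8, 48.0, 29.3, 26.2 and 16.7 CPM. Serpina3n varied less, at 85.6, 129.8, 122, 133 and 144 CPM. Mki67 measured 51.7, 31.2, 29.6, 21.8 and 21.8 CPM. Egr1 measured 121, 96.6, 141, 199.9 and 209 CPM at 2 dpi and 221, 289, 312, 383 and 418 CPM at rest, lower at 2 dpi in all 5 groups. The distance groups also differed in tissue make-up. At 2 dpi the myelin list summed to 2745 CPM in the nearest group and 6863 CPM beyond 6 steps. The homeostatic astrocyte list summed to 3517 and 6550 CPM there. The meninges list summed to 4114 and 417 CPM at rest and to 969 and 1229 CPM at 2 dpi. Distance and tissue make-up can therefore not be told apart here. Spots of 1 slice are not replicates, and the groups are given as a description.

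**Figure D3:**
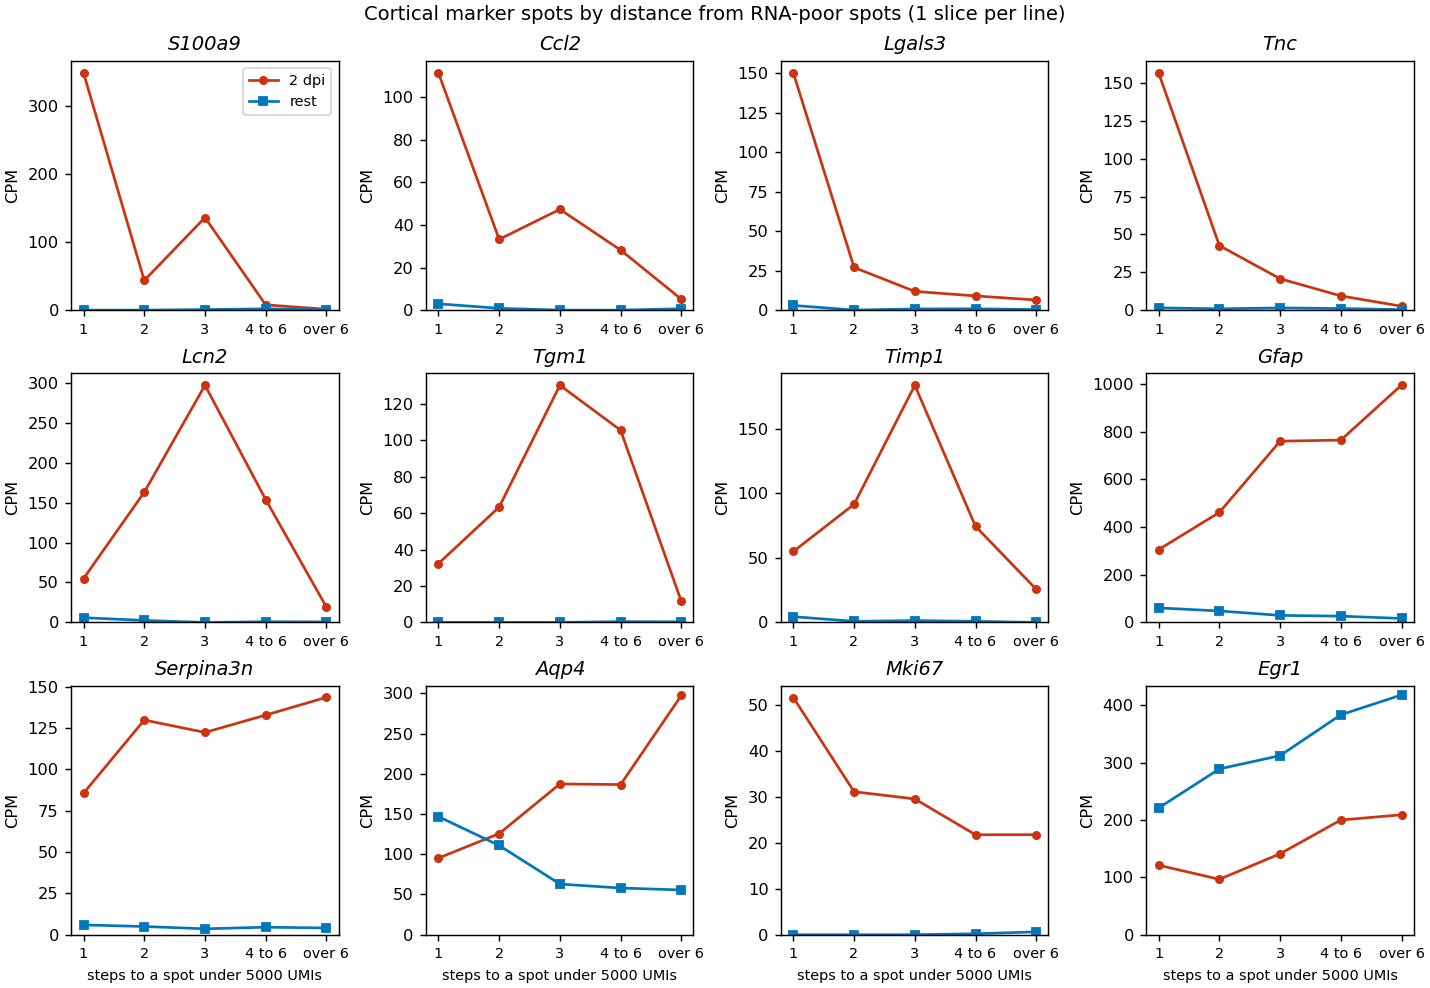
Level in CPM (y axis, from 0) of 12 genes in cortical marker spots, by array steps to the nearest spot under 5000 UMIs (x axis), at 2 dpi in red and at rest in blue, each line being 1 slice. S100a9, Ccl2, Lgals3 and Tnc are highest in the spots next to RNA-poor tissue, Lcn2, Tgm1 and Timp1 at 3 steps, and Gfap and Aqp4 beyond 6 steps.

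The same genes also differed just outside the UMI minimum. At 2 dpi Lgals3 measured 559, 653, 553, 281 and 66.1 CPM in spots of 2000 to 4000, 4000 to 5000, 5000 to 6000, 6000 to 10000 and at least 10000 UMIs, each class without its upper bound. S100a9 measured 246, 170.0, 99.1, 113 and 43.6 CPM and Ftl1 4428, 6446, 7219.6, 3175 and 1253 CPM in the same order. Tgm1 measured 46.6, 49.2, 49.6, 124 and 115 CPM, so unlike Lgals3 and Ftl1 it was higher in the deeper spots. Lgals3 and Ftl1 thus stood at similar levels in the 50 spots just below the minimum and the 22 just above it, and both were lower in the deeper spots.

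Higher levels at 2 dpi were not limited to cortex. Gfap stood at 1298 CPM in Ttr-rich, 1169 in striatal marker and 1722 in myelin-rich spots, against 132 in Ttr-rich and 216 in myelin-rich spots at rest. Tgm1 reached 238 CPM in striatal marker and 200.2 CPM in myelin-rich spots, above the cortical marker spots. S100a9 was instead 5.95, 14.8 and 6.29 CPM in these regions, below cortex. No striatal marker spots were found at rest, so striatum has no resting value here.

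Set beside the later slices, 2 dpi was a high point for some genes and not for others. The later slices lay in other capture areas, so time and capture area cannot be told apart in these values. In cortical marker spots Tgm1 stood at 82.0 CPM at 2 dpi and between 0.158 and 3.62 CPM in the 6 later slices. Hmox1 stood at 65.8 and between 3.18 and 20.05 CPM. Gfap was 694 CPM at 2 dpi, 403 and 569.9 at 7 dpi and 107 and 153 at 21 dpi. C1qa was 190.5 CPM at 2 dpi but 362 and 543 at 7 dpi, and Lyz2 72.8 CPM at 2 dpi but 261 and 253. Apoe was 1472 CPM at rest, 1057 at 2 dpi and 3779 and 4735 at 7 dpi. C1qa, Lyz2 and Apoe were thus higher in both slices at 7 dpi than at 2 dpi, and Tgm1 and Hmox1 lower.

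**Figure D4:**
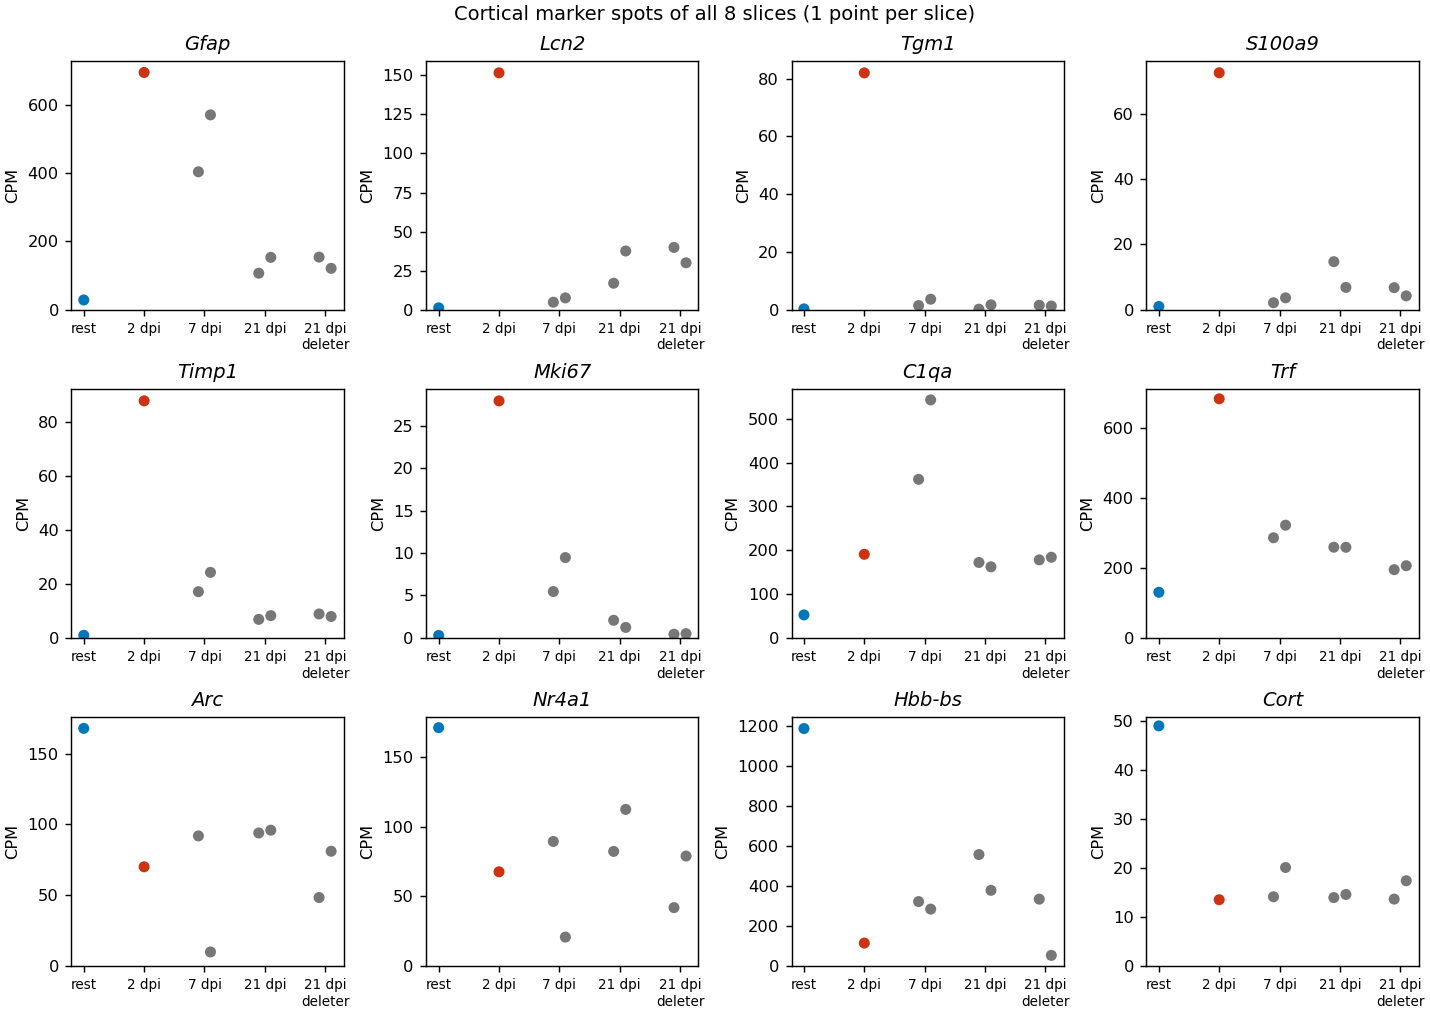
Level in CPM (y axis, from 0) of 12 genes in the cortical marker spots of all 8 slices, 1 point per slice, with rest in blue, 2 dpi in red and the later slices in grey. Tgm1, S100a9, Timp1, Mki67 and Trf are highest at 2 dpi, C1qa is higher at 7 dpi, and Arc, Nr4a1, Hbb-bs and Cort are highest at rest.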

How the data were processed

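Brain slices were placed 2 to a Visium capture area, and the libraries of 4 areas were sequenced. The authors deposited filtered count matrices, in which each value is a number of UMIs, and spot positions. The submitters' processing notes name Space Ranger 2.0.0 and the genome build mm10. No normalization had been applied, and the 32285 genes of the files were used as named there.

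Spots over tissue were joined to connected pieces on the array, and spots with at least 5000 UMIs were kept. UMI counts were summed over the kept spots of each slice and expressed as CPM. Genes with a mean CPM of at least 5 over both slices were counted as higher or lower at a ratio of 2 or more. Genes with at least 5 CPM at rest were counted too, a rule chosen after seeing the data. For the share over all genes, these also had to pass the mean CPM in either set of spots. With 1 slice per time no test was run. Each ratio has an exact 95% Clopper-Pearson interval that covers counting error of these UMIs only, not differences between mice, slices or libraries. A gene without a UMI in a slice was set to a floor of 3 UMIs there to give a ratio, which is no strict bound. The members and all gene lists were chosen with earlier results of these data known. Of 577 list genes 575 were matched by symbol, and the other 2 were not analysed here.

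Spots were classed by UMIs per 10000 UMIs, summed over a spot and those of its 6 neighbours that were kept. They were called myelin-rich at 150 or more over myelin genes, Ttr-rich at 50 for Ttr, striatal at 20 over striatal genes, hippocampal at 3 over hippocampal genes, and cortical at 6 over 10 cortical genes with Slc17a7 at 2 or more. Cortical spots also had to lie under 150 for myelin genes and under 50 for Ttr. A spot that met several rules took the first of cortical, Ttr-rich, striatal, myelin-rich and hippocampal. The genes that chose a class are no finding within it.

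Named genes were the 15 with the highest and the 15 with the lowest ratio among counted genes with at least 200 UMIs in the higher slice, the 10 with the largest CPM difference each way among genes at least 1.5-fold apart, and 2 to 4 members of each list with the most UMIs past 2-fold. Genes outside this rule, such as those of pericytes or those too low to be counted, were chosen after their values were seen. Spots were thinned to 5000 UMIs to compare shares of spots. Alternatives were the UMI minimum, the CPM filter, thinning, regions left out, the distance to RNA-poor tissue, and scaling by edgeR 4.0.16 and DESeq2 1.42.0, which gave size factors only. The procedure was tested on simulated data. Promoters are from RefSeq, build GRCm38.p6, which is the build mm10. Python 3.11.15 with numpy 2.4.6, pandas 2.3.3 and scipy 1.17.1, and R 4.3.3, were used.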

Additional observations from a re-analysis of the deposited data

How the results depend on the processing

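No paired analysis was possible because each time is 1 slice of 1 mouse. Over all RNA-rich spots the count of 1158 genes at least 2-fold higher became 2190 with a CPM filter of 1, 414 with one of 20, 3079 without a filter and 542 in cortical marker spots. The count of 240 lower genes became 475, 135 and 942 under the same filters, 127 without myelin-rich and striatal marker spots, 105 without Ttr-rich spots, 495 against 2 dpi spots within 3 steps of RNA-poor tissue and 48 in cortical marker spots. In cortex the 542 higher genes became 1190, 173 and 1565 under these filters. The 48 lower genes became 265, 18 and 700, 151 after thinning, 122 within 3 steps, 78 beyond them and 192 in patch A alone. Other alternatives moved these counts by less than 1.5 times.

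Within cortical marker spots the sign turned for Ttr, to a log2 ratio of -0.21, and for Enpp2, to -0.10. It also turned for the medians of hippocampal genes, to 0.33, and of choroid plexus and ependymal genes, to -0.10. Low Ttr was a condition for these spots, so its value there is no finding. No other gene ranked by ratio or by CPM difference changed sign, and no other list median past 2-fold did. Genes outside these rankings were not checked in this way. Small differences among them can turn, as those of Cthrc1 and Pdgfrb did between cortex and all RNA-rich spots. Smaller medians did turn. Over all spots 4 lists with medians up to 0.31 turned under 6 alternative values, among them, in cortex, the integrated stress response and p53 to -0.14, hypoxia and glycolysis from 0.13 to -0.03 and glucocorticoid-responsive genes from 0.23 to -0.21. In cortex 13 lists with medians up to 0.34 turned under 35, among them, in patch A, meninges to -1.14 and myelin from 0.15 to -0.33. Of the alternative values of the ranked genes over all spots, 260 moved beyond their intervals, 2 reversed and 374 did neither. In cortex 130 moved beyond their intervals and 442 did not. Scaling by TMM shifted log2 ratios by 0.078 over all spots and 0.049 in cortex, and by median of ratios by 0.089 and 0.040.

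The slices were assigned to rest and 2 dpi by outline, not by a label, and come from 1 mouse each, with different anatomy. Differences between times, mice and levels of the brain cannot be told apart. Spots near RNA-poor tissue are shallower, and genes below the CPM filter were described by their UMIs alone.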
